A study of Mus musculus with 13 samples.

Results

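The genes described here are 9 genes of Notch signaling and of the retinal progenitor program, Notch1, Dll1, Dll3, Hes1, Hes5, Hey1, Neurog2, Fgf15 and Sfrp2. They were chosen by name and were all found among the 52550 genes of the count table by their Ensembl identifiers. RNA-seq was performed on Thy1.2-positive cells sorted by FACS from mouse retina to enrich retinal ganglion cells (RGCs), in 13 libraries of 2 datasets. In the development dataset, wild type mice without injury gave 3 libraries at postnatal day (P) 1, 3 at P14 and 2 at P21. In the knockout dataset, adults labelled P42 gave 3 libraries after AAV2-GFP and 2 after AAV2-Cre, each 3 days past a crush of the optic nerve.

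By the methods, the mice of both AAV2 groups carried floxed Kdm6a (also named UTX, a histone demethylase) and the virus was injected into the vitreous ahead of the crush. The labels call the AAV2-Cre genotype a UTX knockout, while the series text calls the AAV2-GFP mice wild type. AAV2 in the vitreous reaches mainly RGCs, and the sort took every Thy1.2-positive cell, so cells that the virus did not reach can be in these libraries. The whole-gene level of Kdm6a was 114.9, 96.6 and 118.7 CPM (read counts scaled to the size of the library) after AAV2-GFP and 110.4 and 112.0 CPM after AAV2-Cre. These levels overlapped, and a count over the whole gene does not check the loss of a floxed exon. The labels do not say how many animals each library holds, so the p-values measure the spread between these libraries, which may be technical.

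Notch receptors sit at the cell surface and bind the ligands of a neighbouring cell. Binding releases the receptor's intracellular domain, which joins the DNA-binding protein RBPJ in the nucleus and switches on genes of repressors of the Hes and Hey families. In the developing retina these repressors hold cells in the progenitor state, while proneural factors such as Neurog2 drive cells towards neurons and raise the ligands that activate Notch in their neighbours. Müller glia, the radial glia of the retina, arise from late progenitors and keep several progenitor genes in the adult.

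The cell content of the libraries changed strongly with age, and this stands beside every result below. The summed level of 10 RGC marker genes was 9224 to 10280 CPM at P1, 967 to 1131 CPM at P14, 581 and 189 CPM at P21, and 225 to 317 CPM in the injured adults. The summed level of 13 Müller glia marker genes was 2645 to 6848 CPM at P1, 23447 to 24835 CPM at P14, 43473 and 44862 CPM at P21, and 4295 to 9206 CPM in the adults, with none of the 13 genes at 0 in any library. The label of RGCs thus fits the markers at P1 far better than at the later ages. P1 replicate 3 stood apart from the other P1 libraries, with a Müller marker sum of 2645 CPM against 6432 and 6848 CPM. Total counts were 30357454 to 38812917 per development library and 13637602 to 16070720 per adult library. In these bulk samples, fewer cells of a type and less RNA per cell cannot be told apart.

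Promoter sequences were read where Notch acts most directly, at the repressor genes that RBPJ can switch on. A window of 300 bases, from 250 before to 50 after the start site, was in the RefSeq table (GRCm38.p6) for 6 of the 9 genes, and none was there for Hes1, Hey1 or Fgf15. The RBPJ-type letters GTGGGAA were searched on both strands and were found in 2097 of 32851 promoter windows (6.38%). Among the 6 genes only Hes5 held them, at 2 places in opposite orientation, starting 226 and 83 bases before the start site (positions -226 and -83). Of the 2 other target repressors with a window, Hey2 also held 2 matches, at -207 and -4, and Nrarp held 0. Both windows are printed 5′ to 3′ on the strand of the gene, from chr4:154960673-154960972 on the plus strand for Hes5 and from chr10:30842734-30843033 on the minus strand for Hey2, with the matches in capitals.
Hes5: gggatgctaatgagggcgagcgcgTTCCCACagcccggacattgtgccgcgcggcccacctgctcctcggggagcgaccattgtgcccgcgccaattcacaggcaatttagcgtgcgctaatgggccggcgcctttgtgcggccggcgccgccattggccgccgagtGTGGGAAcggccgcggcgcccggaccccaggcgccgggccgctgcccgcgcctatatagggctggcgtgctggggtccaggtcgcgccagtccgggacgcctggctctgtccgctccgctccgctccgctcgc
Hey2: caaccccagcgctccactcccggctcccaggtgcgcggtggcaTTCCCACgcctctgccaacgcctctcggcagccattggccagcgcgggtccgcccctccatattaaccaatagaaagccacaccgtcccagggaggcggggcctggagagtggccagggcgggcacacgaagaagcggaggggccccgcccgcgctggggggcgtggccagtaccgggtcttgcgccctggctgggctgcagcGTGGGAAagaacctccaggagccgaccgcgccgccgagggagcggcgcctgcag

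The Hes and Hey repressors themselves bind class C sites, with the letters CACGCG, which were found on either strand in 3045 windows (9.27%). Of the 6 genes, Dll1 held them in 1 of its 2 windows, at -68, and Sfrp2 at -152, and neither window held the RBPJ-type letters. Neurog2, which like Dll1 and Sfrp2 was highest at P14, held 0 class C sites, as did Notch1, Dll3 and Hes5. The windows of Dll1 and Sfrp2 are shown as the 2 that hold a match. They run over chr17:15376883-15377182 on the minus strand for Dll1 and chr3:83766071-83766370 on the plus strand for Sfrp2, with the match in capitals.
Dll1: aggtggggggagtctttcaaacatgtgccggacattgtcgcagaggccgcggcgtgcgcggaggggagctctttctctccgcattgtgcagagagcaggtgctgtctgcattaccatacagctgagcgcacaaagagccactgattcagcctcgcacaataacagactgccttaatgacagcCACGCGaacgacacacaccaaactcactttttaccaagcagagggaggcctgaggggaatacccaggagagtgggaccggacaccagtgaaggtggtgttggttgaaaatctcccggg
Sfrp2: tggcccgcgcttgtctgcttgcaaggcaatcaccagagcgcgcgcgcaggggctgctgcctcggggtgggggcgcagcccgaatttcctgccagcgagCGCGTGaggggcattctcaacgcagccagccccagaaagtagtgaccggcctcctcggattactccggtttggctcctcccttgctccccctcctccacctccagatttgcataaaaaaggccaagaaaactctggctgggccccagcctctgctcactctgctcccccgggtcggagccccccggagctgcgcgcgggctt

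A match of letters is a description of the window and not a binding site, and no binding was measured here. The N box CACNAG was in 42.5% of windows and the E box CAGCTG in 16.3%, too common to set these genes apart.

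Levels of the 9 genes are given as CPM, with the total count of each library multiplied by a TMM factor from all 13 libraries. TMM takes most genes as unchanged between libraries, which the strong change in cell content can break. From P1 to P14 the receptor Notch1 and the repressor Hes1 rose the most, and 6 others rose by less, while Dll3 fell. From P14 to P21 the genes parted. Notch1, Hes1 and Hey1 stayed high without a called change, Hes5 rose again, and Dll1, Neurog2, Fgf15, Sfrp2 and Dll3 fell. A call here is a Benjamini-Hochberg adjusted p under 0.05 in edgeR's quasi-likelihood test over all genes tested.

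At P14 against P1, 8 of the 9 genes were called higher and Dll3 was called lower. Among all 20890 genes tested, 33.6% were called higher and 33.6% lower in this comparison. The median log2 fold change was 0.79 over the 9 genes and -0.01 over all genes tested. At P21 against P14, 1 gene was called higher, 5 lower and 3 not, where 14.6% of all genes tested were called higher and 19.3% lower. With scaling by library size alone, this split over all genes was 2326 higher and 4722 lower in place of 3047 and 4024, while the split of the 9 genes was as before. At P21 against P1, 5 were called higher and 3 lower, where 34.1% and 33.6% of all genes tested were called.

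**Figure D1:**
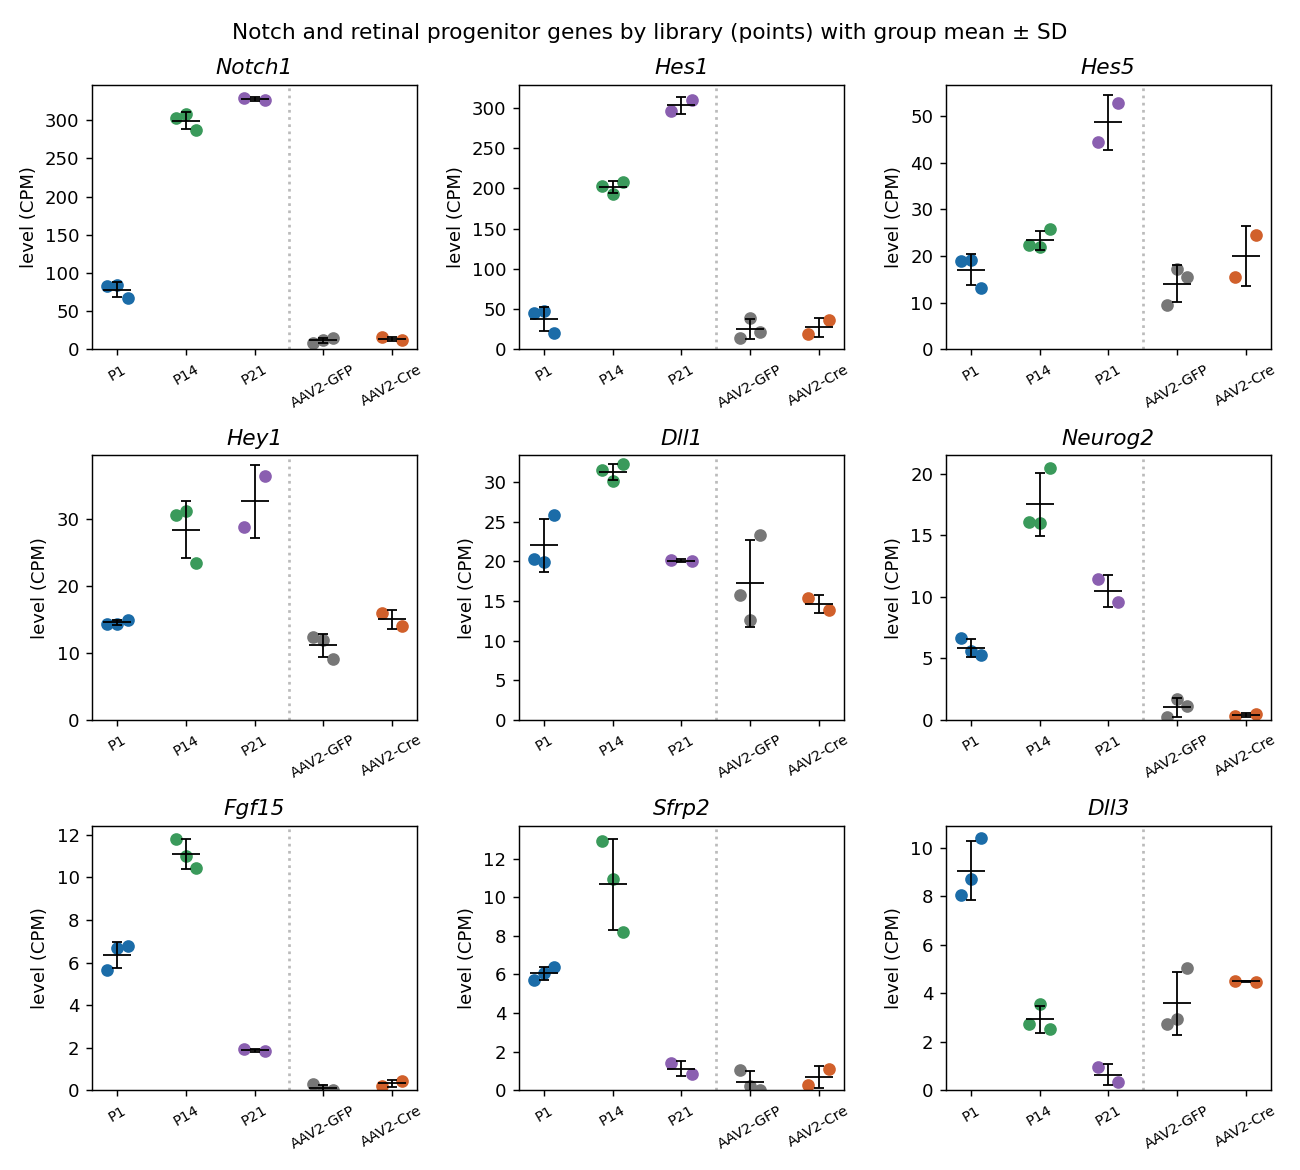
Level in CPM (y axis, from 0) of each of the 9 genes in the 5 groups (x axis), with 1 point per library and the group mean ± SD as bars; the dotted line parts the development from the injured adult dataset. Notch1, Hes1, Hes5 and Hey1 were highest at P21, Dll1, Neurog2, Fgf15 and Sfrp2 at P14, and Dll3 at P1.

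Notch1 (chromosome 2, 26457903 to 26516663, minus strand, GRCm38) encodes the receptor that most retinal progenitors use. Its level was 83.2, 84.7 and 67.0 CPM at P1, 303, 309 and 287 CPM at P14 and 329 and 326 CPM at P21. Every P14 library lay above every P1 library, and both P21 libraries lay just above the P14 libraries. The rise from P1 to P14 was 1.90 ± 0.09 on the log2 scale (SE, adjusted p = 6.06e-08), or 3.74-fold. The step to P21 was 0.19 ± 0.096 (adjusted p = 0.163).

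Hes1 (chromosome 16, 30064384 to 30067796, plus strand) encodes the repressor that Notch switches on most widely. Its level was 45.1, 47.5 and 20.03 CPM at P1, 203, 193 and 208 CPM at P14 and 295 and 310 CPM at P21. The ages did not overlap, and P1 replicate 3 was lower than the other P1 libraries, as it was for the Müller glia markers. Hes1 rose by 2.39 ± 0.26 on the log2 scale from P1 to P14 (adjusted p = 2.11e-05), and by 2.08 when P1 replicate 3 was left out (adjusted p = 5.63e-11). The step from P14 to P21 was 0.65 ± 0.27 (adjusted p = 0.095) and was not called.

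Hes5 (chromosome 4, 154960923 to 154962371, plus strand) encodes a repressor expressed in neural progenitors and Müller glia, and is the gene whose promoter window is printed above. Its level was 18.9, 19.1 and 13.2 CPM at P1, 22.3, 22.0 and 25.8 CPM at P14 and 44.5 and 52.7 CPM at P21. The step to P14 was small, 0.42 ± 0.15 on the log2 scale (adjusted p = 0.0284), and the step to P21 was larger, 1.12 ± 0.16 (adjusted p = 0.00061). Hes5 was the 1 gene of the 9 that was called higher at P21 than at P14. Its call at P14 was lost without P14 replicate 1 (adjusted p = 0.0516) or without P14 replicate 3 (adjusted p = 0.104), and the change was 0.26 without P1 replicate 3 (adjusted p = 0.0494).

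Hey1 (chromosome 3, 8663359 to 8667256, minus strand) encodes a related repressor that also acts downstream of Notch in blood vessels. Its level was 14.3, 14.4 and 14.97 CPM at P1, 30.5, 31.2 and 23.4 CPM at P14 and 28.7 and 36.4 CPM at P21. P1 lay below both later ages, which overlapped. The rise from P1 to P14 was 0.93 ± 0.13 on the log2 scale (adjusted p = 0.000139). The step to P21 was 0.26 ± 0.14 (adjusted p = 0.192).

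The ligand and proneural genes did not stay high. Dll1 (chromosome 17, 15367354 to 15376872, minus strand) encodes a ligand that newborn neurons present to progenitors. Its level was 20.2, 19.9 and 25.8 CPM at P1, 31.4, 30.1 and 32.2 CPM at P14 and 20.2 and 19.99 CPM at P21. It rose by 0.48 ± 0.10 on the log2 scale (adjusted p = 0.0016) and then fell by 0.58 (SE 0.11, adjusted p = 0.00328), so that P21 and P1 overlapped (log2 fold change -0.10, adjusted p = 0.426). Exons of A930024N18Rik on the other strand share 867 bases with those of Dll1, and that gene had 479 to 593 counts per library at P1 and 58 to 95 at P14. The library kit named in the labels does not mark strand, so reads from these shared bases cannot be told apart. The same limit holds for bases shared with Fgf15 (761, Gm26793, 0 to 72 counts per library) and Sfrp2 (347, Gm26771, 0 to 37). At P21 Fgf15 had only 71 and 62 counts and Sfrp2 51 and 29. It also holds for Hes5 (433, Gm20421, 0 to 34 counts) and Notch1 (1068, 0610009E02Rik, 6 to 54).

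Neurog2 (chromosome 3, 127633135 to 127635631, plus strand) encodes a proneural transcription factor that starts neuron formation in progenitors. Its level was 6.68, 5.58 and 5.30 CPM at P1, 16.1, 15.99 and 20.5 CPM at P14 and 11.4 and 9.59 CPM at P21. The 3 ages did not overlap, with P14 highest and P21 between P14 and P1. The rise to P14 was 1.55 ± 0.14 on the log2 scale (adjusted p = 5.19e-06), after which it fell by 0.68 (SE 0.15, adjusted p = 0.00749). The fall was not called without P21 replicate 2 (adjusted p = 0.056).

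Fgf15 and Sfrp2, which encode a secreted growth factor and a secreted modulator of Wnt signaling that mark retinal progenitors, moved alike. Fgf15 (chromosome 7, 144896531 to 144900953, plus strand) was at 5.65, 6.66 and 6.76 CPM at P1, 11.8, 11.01 and 10.4 CPM at P14 and 1.94 and 1.84 CPM at P21. It rose by 0.77 ± 0.12 on the log2 scale to P14 (adjusted p = 0.000251) and then fell by 2.49 (SE 0.15, adjusted p = 1e-05), and the ages did not overlap.

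Sfrp2 (chromosome 3, 83766321 to 83774316, plus strand) was at 5.71, 6.07 and 6.39 CPM at P1, 12.9, 10.9 and 8.19 CPM at P14 and 1.39 and 0.861 CPM at P21. It rose by 0.79 ± 0.19 on the log2 scale (adjusted p = 0.00432) and then fell by 3.17 (SE 0.26, adjusted p = 3.16e-05). Both genes therefore ended at P21 below every P1 library. Against P1, Fgf15 fell by 1.72 (adjusted p = 5.04e-06) and Sfrp2 by 2.39 on the log2 scale (adjusted p = 2.23e-05).

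Dll3 (chromosome 7, 28293553 to 28302238, minus strand) encodes a ligand-like protein of differentiating cells that does not activate receptors of neighbours. It was the 1 gene of the 9 that fell at both steps. Its level was 8.06, 8.73 and 10.4 CPM at P1, 2.72, 3.57 and 2.52 CPM at P14 and 0.957 and 0.356 CPM at P21, with no overlap. It fell by 1.66 on the log2 scale to P14 (SE 0.24, adjusted p = 0.000162) and by 2.08 to P21 (SE 0.34, adjusted p = 0.00152). Of 10 RGC marker genes, 10 were called lower at P14 and 6 at P21.

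Read per kilobase of exon, which allows a comparison between genes, Hes1 was the most abundant of the 9 genes in all 3 ages. Its mean level was 18.4 CPM per kilobase at P1, 98.9 at P14 and 149 at P21. Hes5 was second at P1 (12.5 CPM per kilobase) and at P21 (35.7), while Notch1 passed it at P14 (21.0 against 17.1). Dll1, Dll3, Neurog2, Fgf15 and Sfrp2 reached at most 7.87 CPM per kilobase, the mean of Neurog2 at P14.

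**Figure D2:**
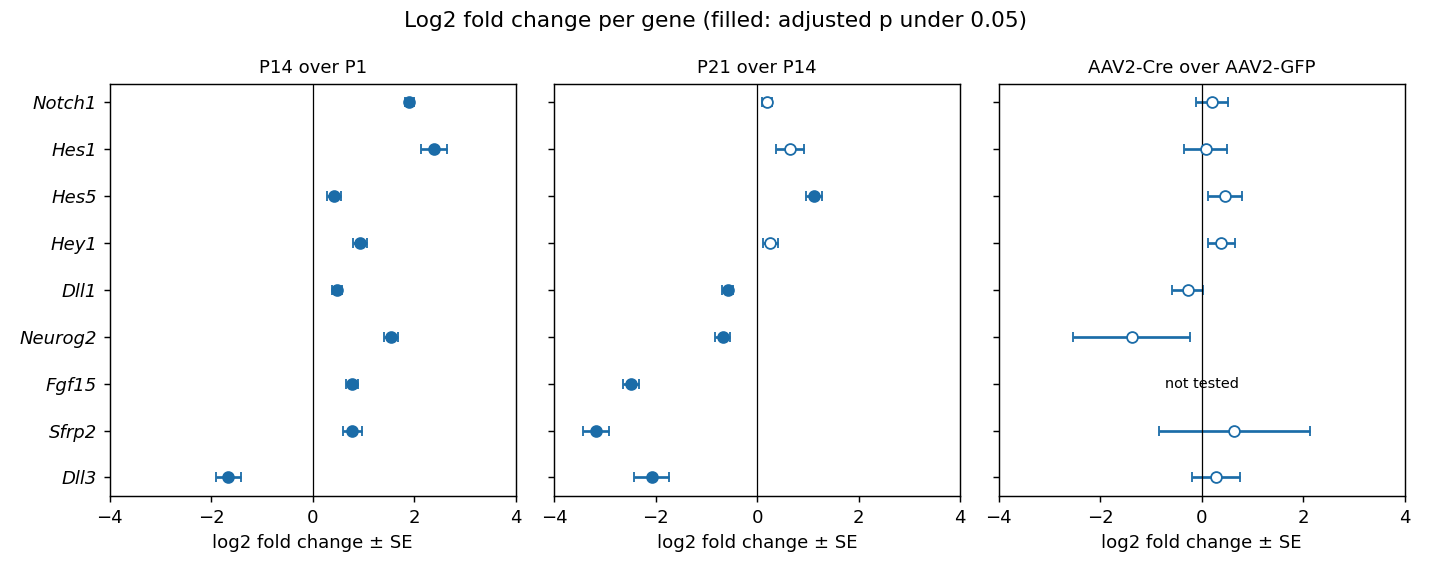
Log2 fold change ± SE (x axis) of the 9 genes (rows) for P14 over P1, P21 over P14 and AAV2-Cre over AAV2-GFP, with filled points for calls at an adjusted p under 0.05. In the first panel 8 genes lie to the right of 0 and Dll3 to the left, in the second Hes5 alone is filled on the right, and in the third no point is filled and Fgf15 was not tested.

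Markers of other cell types moved with these changes. All 13 Müller glia markers were called higher at P14 than at P1. At P21 against P14, 7 of them were called higher again and none lower. In outline that is also the course of Notch1, Hes1, Hes5 and Hey1. By summed level alone, endothelial markers also rose to P14 without a fall at P21, but their single genes went another way at P21. The summed level of 11 endothelial markers was 152 to 293 CPM at P1, 1458 to 1558 at P14 and 1791 to 1847 at P21. All 11 were called higher at P14 than at P1, while at P21 against P14 7 were called lower and 0 higher. Of 12 cycling cell markers, 8 were called lower at P14 and 11 lower at P21, and their summed level was 180 to 199 CPM at P1, 131 to 142 at P14 and 81.4 and 70.8 at P21. The other 4 cycling cell markers were not called at P14. The summed marker levels of 6 other cell types were higher in every P14 library than at both other ages, as were Dll1, Neurog2, Fgf15 and Sfrp2. Those of pericytes and smooth muscle were 99.2 to 352 CPM at P1, 4054 to 4540 at P14 and 586 to 895 at P21, and those of astrocytes 73.4 to 110.1, 1110.2 to 1186 and 434 to 672 CPM. Rod markers were at 78.1 to 107 CPM at P1, 795 to 945 at P14 and 323 to 362 at P21, and microglia markers at 29.8 to 45.8, 361 to 374 and 96.6 to 113 CPM. Amacrine markers were at 90.2 to 111 CPM, 329.9 to 352 CPM and 117 to 139.5 CPM at the 3 ages, and bipolar markers were also higher at P14 (2657 to 2729 CPM) than at P1 and P21. The part of each cell type in the results was not tested.

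Against the summed Müller marker level, in a measure added after the values had been seen, Hes1, Notch1 and Hes5 separated. These were the 3 genes most abundant per kilobase of exon in development, though not in CPM. Hes1 was 0.693% to 0.757% of that sum at P1, P1 replicate 3 included, 0.817% to 0.843% at P14 and 0.680% and 0.692% at P21. Its ratio to these markers therefore stayed within a narrow range while its CPM rose several-fold. Notch1 was 1.24% to 2.53% of the sum at P1, 1.16% to 1.32% at P14 and 0.758% and 0.727% at P21. Hes5 was 0.279% to 0.499% at P1, 0.0897% to 0.104% at P14 and 0.102% and 0.117% at P21, so it rose less than the Müller markers from P1 to P14.

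**Figure D3:**
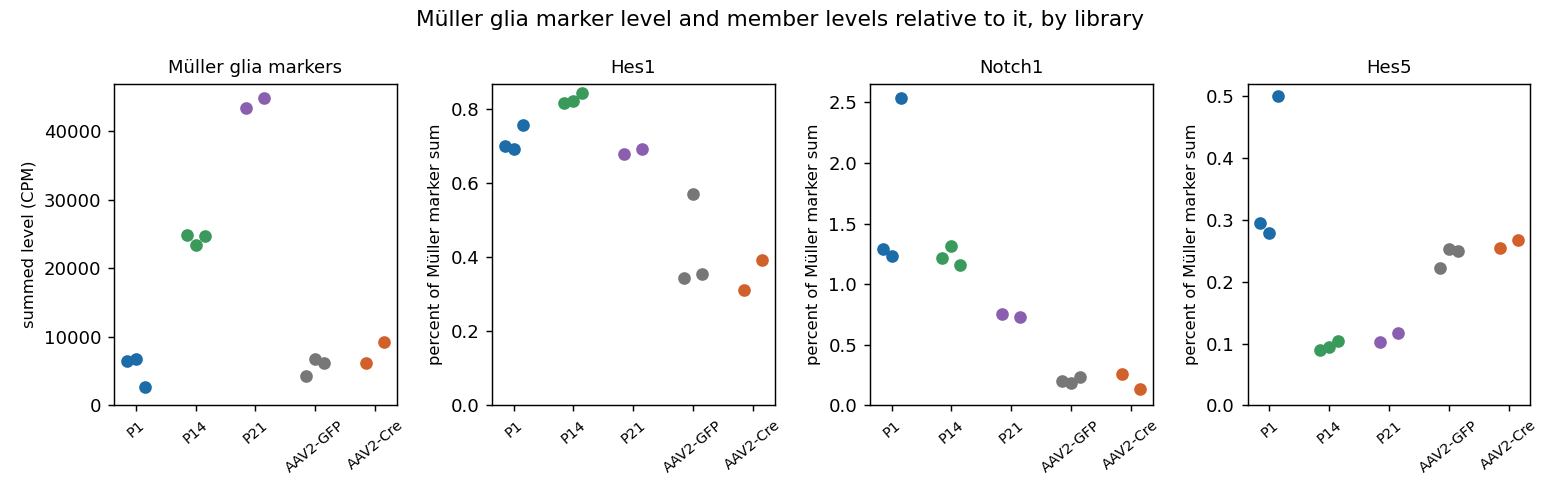
Summed level of the 13 Müller glia markers in CPM (first panel) and the levels of Hes1, Notch1 and Hes5 as a percent of that sum (other panels), by group, with 1 point per library and y axes from 0. Hes1 stays between 0.680% and 0.843% in all 8 development libraries, while Notch1 and Hes5 are highest relative to the markers in P1 replicate 3.

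The genes whose pattern was most like each member were sought by the Pearson correlation of log2 CPM over the 8 development libraries, among 14166 genes. These correlations describe 8 libraries of 3 ages that share the same shifts in cell content. Hes1 was followed most closely by Apoe (r = 0.99995), a lipid carrier of glia that is also among the Müller markers, and by Mgarp. Notch1 was followed by Cnn3 (r = 0.9997) and Add3. Dll3 was followed by Rapgef4 (r = 0.999) and by Eomes (r = 0.998), a transcription factor of a class of RGCs. For the genes that peaked at P14, Lamb1, a laminin chain of basement membranes, was near to both Fgf15 (r = 0.993) and Sfrp2 (r = 0.993), and Gpr158 was nearer still to Sfrp2 (r = 0.998). The nearest were Nelfe and Atf3 for Dll1, Nemp1 and Guk1 for Hes5, Dolk and Miga2 for Hey1, and Tiam2 and Rps10 for Neurog2.

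The wider Notch pathway was read through a list of 47 genes. At P14 against P1, 30 were called higher, 12 lower and 5 not, with a median log2 fold change of 0.47. Genes of every role were among those called higher, where 33.6% of all genes tested were called higher and 33.6% lower. In proteolysis 6 of 9 were called higher and 3 lower, and in ligand and receptor modification 5 of 9 higher and 3 lower. Among the antagonists and endocytic regulators 5 of 9 were called higher and 3 lower. In the nuclear complex 2 of 5 were called higher and 1 lower. All 4 receptors were called higher, Notch2 by 2.56, Notch3 by 3.49 and Notch4 by 0.68 on the log2 scale in addition to Notch1. All 6 target repressors were called higher too, with Heyl at 3.76, Hey2 at 2.35 and the feedback inhibitor Nrarp at 1.99. The ligands split, with Jag1 (3.64) and Dll1 called higher, Jag2 (-1.18) and Dll3 called lower and Dll4 (0.02) not called. Rbpj itself was not called (-0.15, adjusted p = 0.058), while its partners Maml1 (0.96) and Maml2 (1.27) were called higher. Of the proteases that cut the receptor, Adam17 rose by 1.20 and Adam10 fell by 0.98. The antagonist Numb rose by 1.24, while Dtx1 fell by 1.71 and Dlk2 by 2.70.

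At P21 against P14 the pathway list held as many genes called lower (14) as higher (14), with 19 not called. With scaling by library size alone these were 16 lower and 9 higher. Among all genes tested, 14.6% were called higher and 19.3% lower with the main scaling. Of the 5 ligands 4 fell, Dll4 by 2.07, Jag1 by 1.83, Dll3 by 2.08 and Dll1 by 0.58 on the log2 scale, and Jag2 rose by 0.34. Notch3 fell by 2.37 and Notch4 by 1.73, both receptors of vessels, while Notch2 (0.41, adjusted p = 0.23) was like Notch1 not called. Heyl fell by 3.14 and Hes5 rose. The other 4 repressors, Hes1, Hey1, Hey2 and Nrarp, were not called. Among the antagonists Dlk1, a non-canonical ligand, fell by 5.46 after a rise of 2.78, and Dtx4 fell by 0.88. Mfng, which modifies the receptors with sugar, rose by 1.02 to P14 and by 0.54 to P21.

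**Figure D4:**
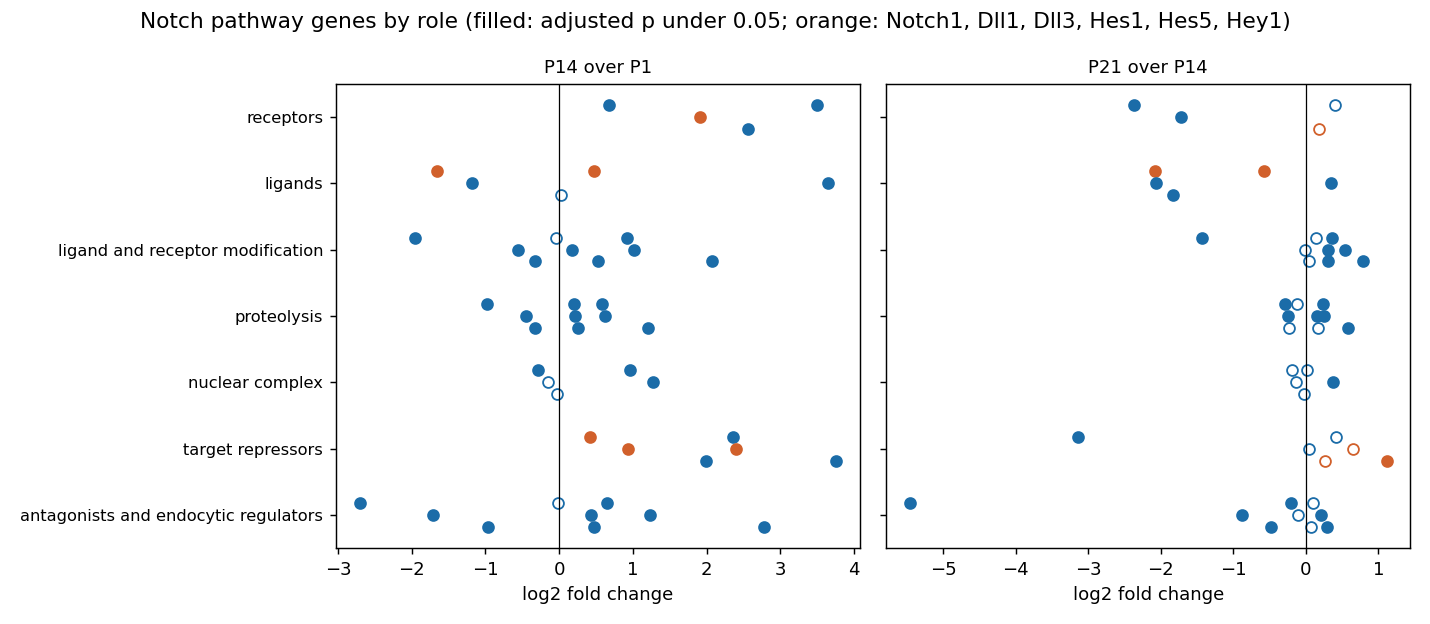
Log2 fold change (x axis) of the 47 Notch pathway genes by role (rows) for P14 over P1 and P21 over P14, with 1 point per gene, filled for calls at an adjusted p under 0.05 and orange for Notch1, Dll1, Dll3, Hes1, Hes5 and Hey1. All 4 receptors and all 6 target repressors lie to the right of 0 at P14, and 4 of the 5 ligands lie to the left at P21.

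Of 32 genes on a list of retinal progenitor genes, which holds 8 of the 9 genes described here, 25 were called higher at P14 than at P1 and 7 were lower (median log2 fold change 1.25). Among all genes tested, 33.6% were called higher and 33.6% lower. The progenitor transcription factors that Müller glia keep led this rise, with Sox9 at 2.80 and Rax at 2.59, and all 8 genes of progenitor signaling and cycling rose, Id1 by 2.94 and Id3 by 3.19. Pax6 (-0.38) and Six3 (-0.65), which amacrine cells and RGCs also use, fell. Of 13 neurogenic genes 8 rose, among them Btg2 by 2.59 and Otx2 by 1.65, and 5 fell, among them Insm1 by 0.96 and Atoh7, the factor that specifies RGCs, by 2.59 on the log2 scale. At P21 against P14, 4 of the 32 were called higher and 13 lower. Among all genes tested, 14.6% were called higher and 19.3% lower in that comparison. Of the 13 neurogenic genes 8 were lower, among them Btg2 by 0.82. Of the 8 signaling and cycling genes 5 were lower, among them the cyclin gene Ccnd1 by 1.03. None of the 11 progenitor transcription factors was lower and 3 were higher, among them Pax6 by 0.35.

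In the injured adults the question was whether Kdm6a deletion changed these genes. No difference between AAV2-Cre and AAV2-GFP was called for any of the 8 genes tested, and Fgf15 was below the low-count filter. In edgeR's test 0 of the 8 had an unadjusted p under 0.05, and DESeq2 also called 0. Over all 18395 genes tested, 1.62% were called, 298 genes. Without AAV2-Cre replicate 1 this number was 8 and without AAV2-Cre replicate 2 it was 5, and DESeq2 called 1259 genes.

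Notch1 was at 8.77, 12.6 and 14.6 CPM after AAV2-GFP and at 16.1 and 12.3 CPM after AAV2-Cre. The groups overlapped, with a log2 fold change of 0.20 (95% interval -0.51 to 0.92, adjusted p = 0.813). Hes1 was at 14.7, 38.7 and 22.1 CPM against 19.1 and 36.1 CPM, a log2 fold change of 0.08 (interval -0.88 to 1.04). The spread of Hes1 within each group was thus larger than the difference between them.

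Hes5 was at 9.56, 17.2 and 15.5 CPM after AAV2-GFP and 15.5 and 24.6 CPM after AAV2-Cre (log2 fold change 0.46, interval -0.30 to 1.22, adjusted p = 0.554). Hey1 was at 12.4, 11.9 and 9.16 CPM against 15.98 and 14.0 CPM, and was the 1 gene of the 9 that was higher in both AAV2-Cre libraries than in all AAV2-GFP libraries, as were 19.6% of all genes tested (0.39, interval -0.23 to 1.01, adjusted p = 0.538). Dll1 was at 15.7, 12.6 and 23.3 CPM against 15.4 and 13.8 CPM (-0.28, interval -0.97 to 0.42). For these repressors and this ligand the intervals still hold changes of about 1 on the log2 scale.

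Dll3 was at 2.73, 2.96 and 5.06 CPM after AAV2-GFP and 4.50 and 4.48 CPM after AAV2-Cre (0.28, interval -0.79 to 1.35). Neurog2 was at 0.216, 1.69 and 1.14 CPM against 0.291 and 0.512 CPM, or 3 to 28 counts per library, and its interval ran from -4.01 to 1.24. Sfrp2 was at 1.08, 0.242 and 0 CPM after AAV2-GFP and 0.291 and 1.09 CPM after AAV2-Cre, or 0 to 17 counts per library, with an interval from -2.73 to 4.02. With these counts and 2 and 3 libraries a group, the intervals of Neurog2 and Sfrp2 still hold changes of several-fold.

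Fgf15 had 0 counts in AAV2-GFP replicates 2 and 3, which allows a level of up to 0.181 CPM in either by counting error alone, and 0.287 CPM in AAV2-GFP replicate 1. It was at 0.218 and 0.448 CPM after AAV2-Cre, or 3 and 7 counts. Sfrp2 had 0 counts in AAV2-GFP replicate 3, with the same limit. The Müller marker sum was 4295, 6783 and 6223 CPM after AAV2-GFP and 6130 and 9206 CPM after AAV2-Cre, so the groups overlapped. Other marker sums did not overlap. After AAV2-Cre they were higher for B cells (271 to 304 CPM against 116 to 139 CPM), T and NK cells (297 to 437 against 133 to 224), amacrine cells (322 to 327 against 216 to 246), astrocytes (78.5 to 149 against 28.2 to 42.1) and cycling cells (285 to 388 against 149 to 227), and lower for bipolar cells (479 to 501 against 619 to 856). Of the genes tested, 2 of 6 B cell, 1 of 6 amacrine and 1 of 4 astrocyte markers were called higher. For T and NK, cycling and bipolar cells 0 markers were called, and 1.62% of all genes tested were called. As single genes, 19.6% of all genes tested were higher in every AAV2-Cre library, so sums that part carry little weight. AAV2-Cre replicate 1 also had a rod marker sum of 12129 CPM, where the other adult libraries had 25159 to 31047 CPM. The part of these cell types in the comparison, and in the Jag1 call given next, was not tested.

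Of the Notch pathway list, 1 of 43 genes tested was called, and it was Jag1, a ligand of vessels and glia. Its level was 96.4 ± 9.20 CPM (SD, n = 3) after AAV2-GFP and 45.9 ± 5.59 CPM (n = 2) after AAV2-Cre, a fall of 1.11 on the log2 scale in edgeR's test (adjusted p = 0.0216). This call was lost when AAV2-Cre replicate 1, AAV2-Cre replicate 2 or AAV2-GFP replicate 2 was left out, each of which left 0 genes of the list called. Of 28 tested genes of the progenitor list, 0 were called in edgeR and 1 was called in DESeq2. In edgeR's test 5 of the 28 had an unadjusted p under 0.05. The share of all genes tested with such a p was not worked out, so this count cannot be read as high or low.

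The levels of the injured adults are set beside those of development as a description, since age, injury, virus and dataset cannot be told apart. Their cell content differed too, with summed levels of 12129 to 31047 CPM for rod markers against 78.1 to 945 CPM in development, 6030 to 10501 against 29.8 to 374 CPM for microglia markers and 116 to 304 against 0.520 to 1.27 CPM for B cell markers, and the part of these cells in the levels was not tested. For 3 of the 9 genes, all 5 adult libraries lay below all 8 development libraries, a pattern that 24.5% of 23844 genes had. These were Notch1, at 8.77 to 16.1 CPM against 67.0 to 329 CPM, Neurog2, at 0.216 to 1.69 against 5.30 to 20.5 CPM, and Fgf15, at 0 to 0.448 against 1.84 to 11.8 CPM. The adult ranges of the other 6 overlapped with development. Dll3 was higher in all 5 adult libraries (2.73 to 5.06 CPM) than in both P21 libraries, and Hes1 (14.7 to 38.7 CPM) lay within or below the P1 range. The share of all genes with such patterns was not worked out, so neither can be read as particular to these genes.

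Relative to the Müller marker sum the order of the ages was different for Hes1, Hes5 and Notch1. Whether other cells, such as the microglia of the adults, add to this sum was not tested. Hes1 was 0.312% to 0.571% of the sum in the adults, below every development library. Hes5 was 0.222% to 0.267%, above every P14 and P21 library and below every P1 library. Notch1 was 0.134% to 0.263%, the lowest of all groups. Per kilobase of exon, Hes1 at 12.4 and Hes5 at 10.3 CPM per kilobase after AAV2-GFP, and 13.5 and 14.7 after AAV2-Cre, were the most abundant of the 9 genes, and their order was not separable from the spread.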

How the data were processed

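The authors deposited raw counts per gene. Per the labels' processing notes, the tools were Trimmomatic 0.39, FastQC 0.11.9, HISAT2 2.2.1 and featureCounts of Subread 2.0.3, with GRCm38. Symbols were matched by identifier for 52403 of 52550 genes, 49035 with the same version in GENCODE M21, the source of coordinates and exon lengths. In R 4.3.3, edgeR 4.0.16 (glmQLFit, TMM, filterByExpr) was fitted separately to the 8 development and 5 adult libraries. SE is the log2 fold change over the root of F. The biological coefficient of variation was 0.109 and 0.340. DESeq2 1.42.0 was an alternative. CPM used TMM over 23844 genes, and the correlations used log2 CPM with a prior count of 2. Fold changes came from the edgeR fit at its default prior count. Scripts were tested on simulated data. Genes named beyond the 9 were, per role, those of smallest p, the other receptors, ligands and repressors, and the 2 most correlated genes, of which some are not reported here. The 9 genes and all lists were chosen with earlier results of these data known. Replicate numbers did not pair libraries: same-numbered deviations correlated at -0.041 to 0.017.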

Additional observations from a re-analysis of the deposited data

How the results depend on the processing

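Over the alternatives run (DESeq2, other scaling, other low-count filters, a fold limit, all 13 libraries in 1 fit, only the groups compared, a replicate block and each library left out), the number of the 9 genes called moved by over 1.5 times in 1 case: with a log2 fold change of at least 1 required, 4 in place of 9 were called at P14 against P1. That limit, which by its construction drops small changes, left 19 Notch pathway genes at P14 and 9 at P21, and 19 and 8 progenitor genes. Fitting all 13 libraries together left 10 pathway and 9 progenitor genes called at P21 against P14, and fitting P14 and P21 alone gave 27 progenitor genes, and the cause was not tested. For AAV2-Cre against AAV2-GFP the pathway list had 2 genes called in DESeq2, 4 with no filter, 5 with all 13 libraries and 0 with the block. The progenitor list had 1, 2, 2 and 1. Of these settings the number called over all genes is given above for DESeq2 alone, so the other counts have no background here. Leaving out 1 library gave 8 to 9, 5 to 6, 8 to 8 and 0 to 0 of the 9 genes at P14, P21 against P14, P21 against P1 and AAV2-Cre, 39 to 41, 20 to 25 and 0 to 1 of the pathway list, and 30 to 32, 14 to 17 and 0 to 0 of the progenitor list. The sign reversed only among values that were not called. With 1 library left out, the log2 fold change after AAV2-Cre was lowest for Dll1 without AAV2-GFP replicate 2 (-0.42) and highest when AAV2-GFP replicate 3 was omitted (0.0240). It ran from -0.44 (without AAV2-Cre replicate 2) to 0.58 (without AAV2-GFP replicate 2) for Hes1, which was at -0.20 without AAV2-GFP replicate 1, and from -0.58 (without AAV2-Cre replicate 2) to 1.32 (without AAV2-Cre replicate 1) for Sfrp2. That of Dll1 at P21 against P1 ran from -0.17 (without P1 replicate 2) to 0.0176 (without P1 replicate 3). With the replicate block, Dll1 after AAV2-Cre was at 0.00897. In the fit of all 13 libraries, calls were lost for Hes5, Fgf15 and Sfrp2 at P14, for Dll1 and Neurog2 at P21 against P14 and for Neurog2 at P21 against P1. Hes1 at P21 against P14 was called with no filter (adjusted p = 0.00612) and in the fit of P14 and P21 alone (adjusted p = 3.9e-06), where Notch1 was called too (adjusted p = 0.0106). The block on the replicate number changed no call of the 9 genes. Scaling by library size alone moved the median of all genes at P14 against P1 by 0.13 on the log2 scale and turned no direction of the 9 genes there. Low counts in the adults, with 2 and 3 libraries a group, limit Neurog2, Fgf15 and Sfrp2.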
